A study of Mus musculus with 18 samples.

Results

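The globin and erythroid maturation genes Hba-a1, Hba-a2, Hbb-bs, Hbb-bt, Alas2, Slc4a1, Epor, Car1 and Car2 were followed through bone marrow progenitors of lupus-prone mice. The 9 genes were taken by symbol from the expression tables of LSK (Lin-Sca-1+c-Kit+ cells, which hold the stem and early progenitor cells) and of common myeloid progenitors (CMPs). All 9 were among the 19780 genes of the LSK table, and 8 were among the 18428 genes of the CMP table. Hba-a2 has no row in the CMP table and was not analysed there. RNA of sorted cells from female mice was sequenced in 18 libraries, 12 of LSK and 6 of CMPs. NZBW/F1 mice are the offspring of NZB and NZW parents and develop lupus without any treatment. F1-P were NZBW/F1 mice of 12 weeks before disease, and F1-L were NZBW/F1 mice of 28 to 36 weeks with proteinuria. C57BL/6 mice of the same ages, B6-Y and B6-O, were the controls of LSK, and CMPs were profiled in F1-P and F1-L alone. Each group held 3 libraries and no group received an agent or carried an engineered allele. Age and disease therefore change together between F1-P and F1-L and cannot be told apart within NZBW/F1. The CMP replicates are described as drawn from several mice each, and the number of mice behind an LSK library is not given in the sources used here. P-values thus measure only the spread between these libraries.

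Red cells arise from progenitors that pass through colony-forming stages and then through erythroblasts, which fill with haemoglobin and lose their nucleus. Epor encodes the erythropoietin receptor, through which erythropoietin keeps colony-forming erythroid progenitors alive. Car1 and Car2 encode carbonic anhydrases, which interconvert carbon dioxide and bicarbonate. Both are transcribed early in the erythroid lineage, and Car2 is found in several other cell types as well. Alas2 encodes the erythroid enzyme of the first step of heme synthesis, and Slc4a1 encodes band 3, the anion exchanger of the red cell membrane. Hba-a1 and Hba-a2 encode the adult alpha chain and Hbb-bs and Hbb-bt the adult beta chain of haemoglobin. These 4 genes, Alas2 and Slc4a1 are used most strongly by erythroblasts and reticulocytes. Most of these late cells carry Ter119, a surface marker that the LSK and CMP gates both removed, with CD11b, Gr-1, B220 and CD16/32.

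The values are CPM, read counts divided by a scaled library size, as the authors normalized them. They moved in steps of 1 read within each library, so that the reads themselves could be recovered. The totals were 23772252 to 28493747 reads in the LSK libraries and 20001328 to 24761060 in the CMP libraries. Immunoglobulin genes took 16.8% to 36.6% of the reads of NZBW/F1 LSK, 0.301% to 4.76% of C57BL/6 LSK and 0.0152% to 0.255% of CMPs. The LSK and CMP tables were normalized separately. Levels in the 2 tables are therefore set side by side without a test.

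The genes of the gate were measured first, to check the labels of the cells. Kit, which encodes c-Kit, was at 257 to 657 CPM in LSK and at 416 to 668 CPM in CMPs. Ly6a, which encodes Sca-1, was at 35.5 to 879 CPM in LSK and at 1.14 to 6.70 CPM in CMPs. The methods describe the CMP gate as CD34+Sca-1+c-Kit+, and Ly6a was low in all 6 CMP libraries. Ly6a was also higher in NZBW/F1 than in C57BL/6 LSK, at 705 CPM in F1-P against 59.4 CPM in B6-Y (log2 fold change 3.53, SE 0.41, limma adjusted p = 0.00121) and at 363 CPM in F1-L against 63.0 CPM in B6-O (2.68, SE 0.42, limma adjusted p = 0.00813).

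Each pair of adult globin genes is nearly identical in sequence, which bears on how their reads were assigned. Hba-a1 (chr11:32283511-32284465) and Hba-a2 (chr11:32296489-32297298) lie on the plus strand, and Hbb-bs (chr7:103826534-103828096) and Hbb-bt (chr7:103812524-103813996) lie on the minus strand of GRCm38. The coding sequences of Hba-a1 and Hba-a2, 429 bases with the stop codon, differ at 1 base. It is C381T, counted from 1 at the first base of the coding sequence with the base of Hba-a1 first, and falls at base 3 of codon 127 in exon 3. The stretches below show coding bases 367 to 395 of the annotated transcripts in GENCODE M21, with the base that differs in capitals.
Hba-a1: catgcctctctggaCaaattccttgcctc
Hba-a2: catgcctctctggaTaaattccttgcctc
The coding sequences of Hbb-bs and Hbb-bt, 444 bases with the stop codon, also differ at 1 base, C417T, with the base of Hbb-bs first. It is base 3 of codon 139 in exon 3. Coding bases 403 to 431 are shown in the same way.
Hbb-bs: gtggctggagtggcCgctgccctggctca
Hbb-bt: gtggctggagtggcTgctgccctggctca
The libraries were read as single ends of 75 bases. Of the 75-base windows of the main annotated transcripts, 389 were shared exactly by Hba-a1 and Hba-a2, which is 62.2% of the windows of Hba-a1 and 81.0% of those of Hba-a2. Hbb-bs and Hbb-bt shared 356 windows, 64.3% and 56.6% of theirs. A read that lies whole in a shared window does not name its gene. The values of the 4 globin genes therefore rest on the remaining windows to an extent that was not tested, and the split within each pair is uncertain.

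Promoter sequence was available for 6 of the 9 genes (RefSeq, GRCm38.p6), and 4 are shown. Among the 9 genes, Hba-a2 is the one that differed most between the strains, and Hbb-bs, Hbb-bt and Alas2 rose and fell together across the libraries. Each is the 250 bases upstream of the RefSeq start site, read 5' to 3' on the strand of the gene. The start sites of GENCODE M21 differ from these in part. Capitals mark GATAA or its reverse complement TTATC, the core recognised by GATA factors, and CACCC or its reverse complement GGGTG, the core recognised by Krüppel-like factors such as Klf1.
Hba-a2, chr11:32296242-32296491, strand plus: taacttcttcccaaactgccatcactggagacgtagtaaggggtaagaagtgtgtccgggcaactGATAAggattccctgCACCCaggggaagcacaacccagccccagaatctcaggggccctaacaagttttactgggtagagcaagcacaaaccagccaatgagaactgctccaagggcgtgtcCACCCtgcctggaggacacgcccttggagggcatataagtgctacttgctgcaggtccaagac
Hbb-bs, chr7:103827929-103828178, strand minus: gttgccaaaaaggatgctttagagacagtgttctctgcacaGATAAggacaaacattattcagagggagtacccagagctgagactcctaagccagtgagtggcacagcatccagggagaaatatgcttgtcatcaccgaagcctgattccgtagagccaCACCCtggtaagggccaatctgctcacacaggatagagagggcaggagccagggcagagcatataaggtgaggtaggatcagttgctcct
Hbb-bt, chr7:103813924-103814173, strand minus: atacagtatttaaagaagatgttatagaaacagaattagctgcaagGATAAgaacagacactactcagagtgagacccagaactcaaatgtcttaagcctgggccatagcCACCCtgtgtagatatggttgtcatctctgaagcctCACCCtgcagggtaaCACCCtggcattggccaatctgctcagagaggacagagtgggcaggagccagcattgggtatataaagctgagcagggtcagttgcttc
Alas2, chrX:150547167-150547416, strand plus: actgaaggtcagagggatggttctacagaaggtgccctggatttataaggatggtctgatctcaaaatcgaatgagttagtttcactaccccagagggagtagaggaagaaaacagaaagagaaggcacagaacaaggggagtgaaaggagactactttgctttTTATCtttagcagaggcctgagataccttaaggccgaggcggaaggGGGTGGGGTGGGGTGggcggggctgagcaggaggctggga
The promoter of Hba-a1 (chr11:32283422-32283671) matched that of Hba-a2 at all 247 aligned bases, whereas those of Hbb-bs and Hbb-bt matched at 175 of 244 aligned bases (71.7%). GATAA was found once in each of the 6 promoters, on either strand, and in 22.6% of 32851 promoter windows of the same length. It began 185 bases upstream of the start in Hba-a2, 209 in Hbb-bs and 204 in Hbb-bt on the strand of the gene, and 86 in Alas2 and 54 in Epor on the other strand. CACCC was found 1 to 3 times in each of the 6 promoters and in 52.0% of all windows. A match of these letters is a description of the sequence and not evidence of binding.

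In LSK, the globin genes, Alas2 and Slc4a1 varied widely between libraries of the same group. Hbb-bs was at 13.6, 17.2 and 1453 CPM in the 3 F1-P libraries, at 73.6, 89.9 and 71.2 CPM in F1-L, at 13.5, 83.9 and 17.3 CPM in B6-Y and at 46.3, 75.3 and 260.1 CPM in B6-O. Hba-a1 was at 8.82, 9.45 and 818 CPM in F1-P, at 40.7, 50.1 and 37.8 CPM in F1-L, at 4.90, 34.5 and 12.3 CPM in B6-Y and at 15.7, 25.5 and 133 CPM in B6-O. In both genes F1-P replicate 3 was the highest of the 12 libraries, F1-P replicates 1 and 2 were among the lowest, and the 3 F1-L libraries lay close together. Hbb-bt followed at 1.77, 2.74 and 296 CPM in F1-P, 11.6, 14.9 and 12.1 CPM in F1-L, 4.46, 28.5 and 10.2 CPM in B6-Y and 14.2, 21.6 and 71.6 CPM in B6-O. The SD of Hbb-bs over its mean was 168% in F1-P, 104% in B6-Y, 91.2% in B6-O and 13.0% in F1-L.

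Alas2 and Slc4a1 rose and fell with the globin genes in LSK. Alas2 was at 2.10, 2.22 and 171 CPM in F1-P, 11.2, 13.4 and 11.1 CPM in F1-L, 1.83, 13.2 and 3.17 CPM in B6-Y and 5.23, 9.38 and 27.0 CPM in B6-O. Slc4a1 was at 2.39, 3.97 and 117 CPM in F1-P, 31.3, 57.8 and 55.3 CPM in F1-L, 3.16, 52.1 and 20.6 CPM in B6-Y and 11.3, 8.43 and 82.0 CPM in B6-O. The library with the highest value within each group was the same for Alas2 as for Hbb-bs. Across the 12 LSK libraries Pearson's r of log2(CPM + 1) with the summed globin genes was 0.99 for Alas2 and 0.84 for Slc4a1, given as a description because the libraries also share depth and F1-P replicate 3 lies far from the rest.

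**Figure D1:**
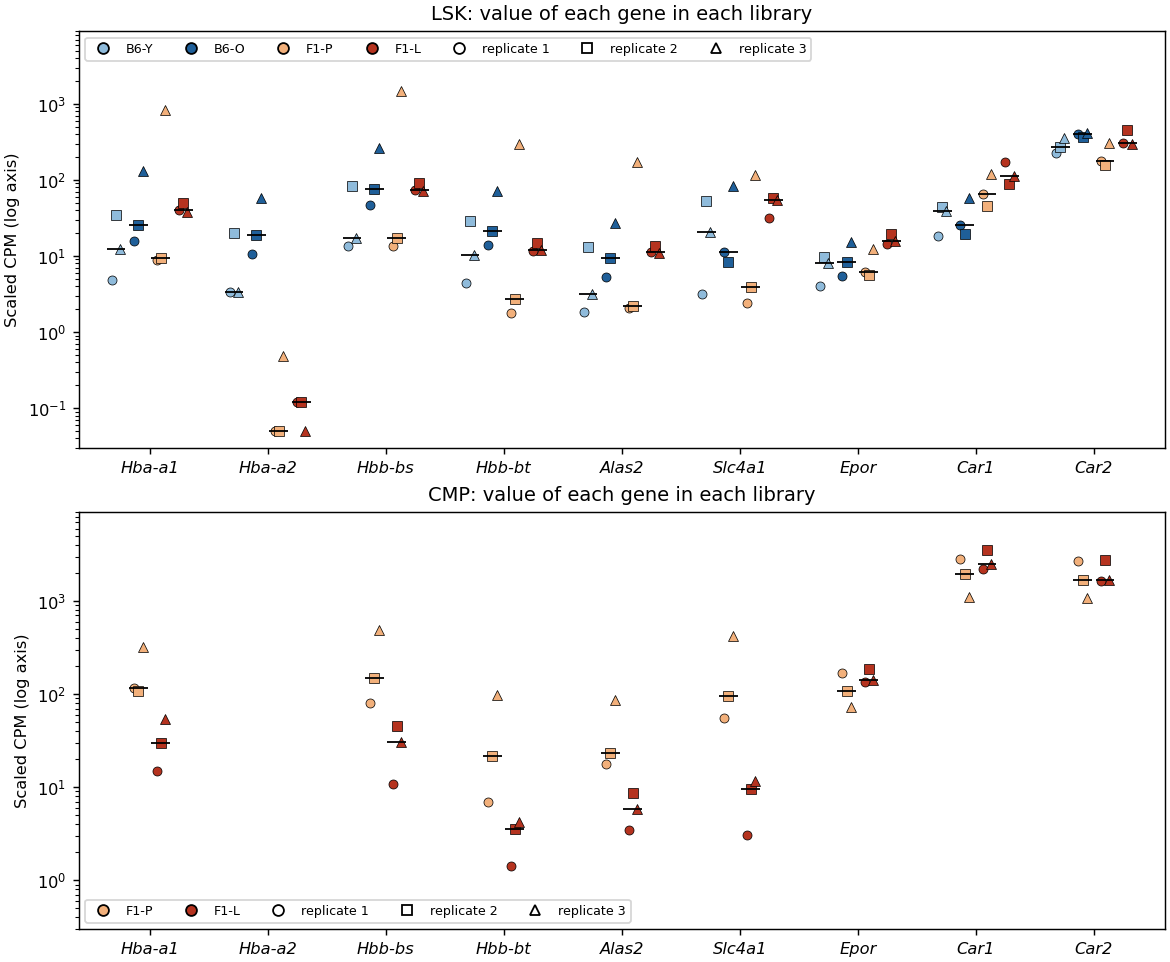
Value of each of the 9 genes in each library, in scaled CPM on a log axis, with LSK above and CMPs below. Colours are groups, symbols are replicate numbers, bars are group medians, and values of 0 are drawn at the lower edge of the LSK panel. In LSK, F1-P replicate 3 (triangle) sits far above replicates 1 and 2 for the globin genes, Alas2 and Slc4a1, and Hba-a2 of both NZBW/F1 groups lies below 1 CPM.

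The genes used early in the lineage were more even between libraries. Epor was at 6.22, 5.66 and 12.4 CPM in F1-P, 14.2, 19.3 and 15.9 CPM in F1-L, 4.09, 9.82 and 8.15 CPM in B6-Y and 5.48, 8.43 and 15.3 CPM in B6-O. Car1 was at 65.2, 44.9 and 121 CPM in F1-P, 171, 87.3 and 113 CPM in F1-L, 18.5, 43.7 and 38.6 CPM in B6-Y and 25.4, 19.4 and 57.5 CPM in B6-O. Car2 was at 175, 156 and 302 CPM in F1-P, 304, 457 and 292 CPM in F1-L, 227, 273 and 359 CPM in B6-Y and 407, 363 and 417 CPM in B6-O. All F1-L values of Epor lay above all F1-P values, and all NZBW/F1 values of Car1 lay above those of the C57BL/6 group of the same age. Car2 ranged over 156 to 457 CPM, the narrowest fold range of the 9 genes in LSK.

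F1-P replicate 3 was set beside replicates 1 and 2 of its group. Its value over their mean was 89.6 for Hba-a1, 94.5 for Hbb-bs, 131 for Hbb-bt, 79.0 for Alas2 and 36.7 for Slc4a1. The same ratio was 2.08 for Epor, 2.19 for Car1 and 1.82 for Car2. Of 13 further late erythroblast markers, 8 were highest of all 12 LSK libraries in F1-P replicate 3. None of 17 early erythroid markers was highest of the table in this library, although all 17 were highest there within F1-P. Markers of other cells also moved, with the 10 neutrophil markers summing to 292, 507 and 1249 CPM in the 3 F1-P libraries and the 11 markers of red pulp and erythroblastic island macrophages to 42.9, 45.5 and 65.1 CPM. The part of any of these in the globin values was not tested, and in such bulk libraries more cells of a type and more RNA per cell cannot be told apart.

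The comparison of F1-L with F1-P asks how LSK of mice with lupus differ from those before disease. With all 3 libraries a group, Hba-a1, Hbb-bs, Hbb-bt and Alas2 had log2 fold changes near 0 with wide errors. The log2 fold change on log2(CPM + 1), a scale that understates changes of low genes, was -0.01 (SE 1.60) for Hba-a1, 0.11 (SE 1.64) for Hbb-bs, -0.08 (SE 1.65) for Hbb-bt and 0.10 (SE 1.46) for Alas2. Slc4a1 differed by 1.92 (SE 1.25, limma adjusted p = 0.589), Epor by 1.01 (SE 0.28, limma adjusted p = 0.226), Car1 by 0.74 (SE 0.38, limma adjusted p = 0.482) and Car2 by 0.76 (SE 0.28, limma adjusted p = 0.327). Hba-a2 was not tested, since fewer than 3 of the 6 libraries reached 1 CPM. None of the 8 genes tested passed the thresholds used throughout, an adjusted p up to 0.05 with over 1.5-fold change, as against 0.0279% of all genes tested (4 of 14332). At an unadjusted p under 0.05 there were 2 of the 8, Epor and Car2, against 12.8% of all genes. Epor alone had groups that did not overlap, with F1-L higher, as had 10.4% of all genes, and none was lower, as were 7.29%. edgeR's likelihood ratio test on the recovered reads also placed none past the thresholds, and DESeq2 placed Epor there (log2 fold change 1.02, DESeq2 adjusted p = 0.0429), among 734 of 14332 genes, 541 of them higher in F1-L.

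This comparison turned on F1-P replicate 3. That library stood out by the values of these same genes, so a fit without it shows dependence on 1 library and is no test. Without it, 5 of the 8 genes were past the thresholds and higher in F1-L, among 25 of 14174 genes, 20 of them higher. The log2 fold changes were then 2.10 (SE 0.17, limma adjusted p = 0.0398) for Hba-a1, 2.27 (SE 0.17, limma adjusted p = 0.0398) for Hbb-bs, 2.10 (SE 0.22, limma adjusted p = 0.0461) for Hbb-bt, 2.02 (SE 0.18, limma adjusted p = 0.0398) for Alas2 and 3.53 (SE 0.32, limma adjusted p = 0.0398) for Slc4a1. In count models with all libraries, where the high library weighs on the group mean, Hbb-bs pointed the other way with a log2 fold change of -2.66 and Alas2 with -2.29. The direction of the globin genes and Alas2 between F1-L and F1-P LSK was thus not settled by 3 libraries a group. Slc4a1 was higher in F1-L in each fit that left out a replicate, with log2 fold changes of 0.97 to 3.53, and in the count models with all libraries its value was 0.23.

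In CMPs the same late genes were lower in every F1-L library than in any F1-P library, while Epor, Car1 and Car2 overlapped. Slc4a1 was at 3.09, 9.50 and 11.6 CPM in F1-L and at 55.1, 95 and 423 CPM in F1-P. Hba-a1 was at 15.1, 29.6 and 53.8 CPM in F1-L and at 117, 108 and 321 CPM in F1-P. Hbb-bs was at 10.8, 45.3 and 30.4 CPM in F1-L and at 79.5, 150.2 and 491 CPM in F1-P. In all 3 genes F1-P replicate 3 was the highest library and F1-L replicate 1 the lowest. Hbb-bt ranged over 1.41 to 4.28 CPM in F1-L and 6.92 to 97.4 CPM in F1-P, and Alas2 over 3.50 to 8.72 CPM and 17.7 to 86.1 CPM.

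None of these differences passed the threshold in limma. The log2 fold change was -4.01 (SE 0.80, limma adjusted p = 0.353) for Slc4a1, -2.82 (SE 0.77, limma adjusted p = 0.394) for Hbb-bs, -2.75 (SE 0.89, limma adjusted p = 0.445) for Hbb-bt, -2.42 (SE 0.57, limma adjusted p = 0.358) for Hba-a1 and -2.36 (SE 0.61, limma adjusted p = 0.381) for Alas2. None of the 8 genes tested passed, as against 0.00774% of all genes tested (1 of 12926). The 5 late genes were the ones with an unadjusted p under 0.05 (9.8% of all genes) and the ones with groups that did not overlap and F1-L lower (6.57% of all genes). None was higher without overlap, as were 9.45% of all genes. Their median with the other 3 was -2.39, beside a median of 0.04 over all genes tested. On the recovered reads, edgeR's likelihood ratio test and DESeq2 placed all 5 past the thresholds. The adjusted p were 0.000240 to 0.0110 in the likelihood ratio test and 0.000629 to 0.0282 in DESeq2. Both also found more of all genes, 308 and 351 of them, than limma. By contrast, edgeR's quasi-likelihood test on the same reads placed 1 of 12926 genes past the thresholds, the same count as limma. Without F1-P replicate 1, limma placed Hbb-bt (-3.61, limma adjusted p = 0.0483) and Slc4a1 (-4.63, limma adjusted p = 0.0325) past the thresholds, among 434 of 12774 genes, 396 of them lower in F1-L.

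**Figure D2:**
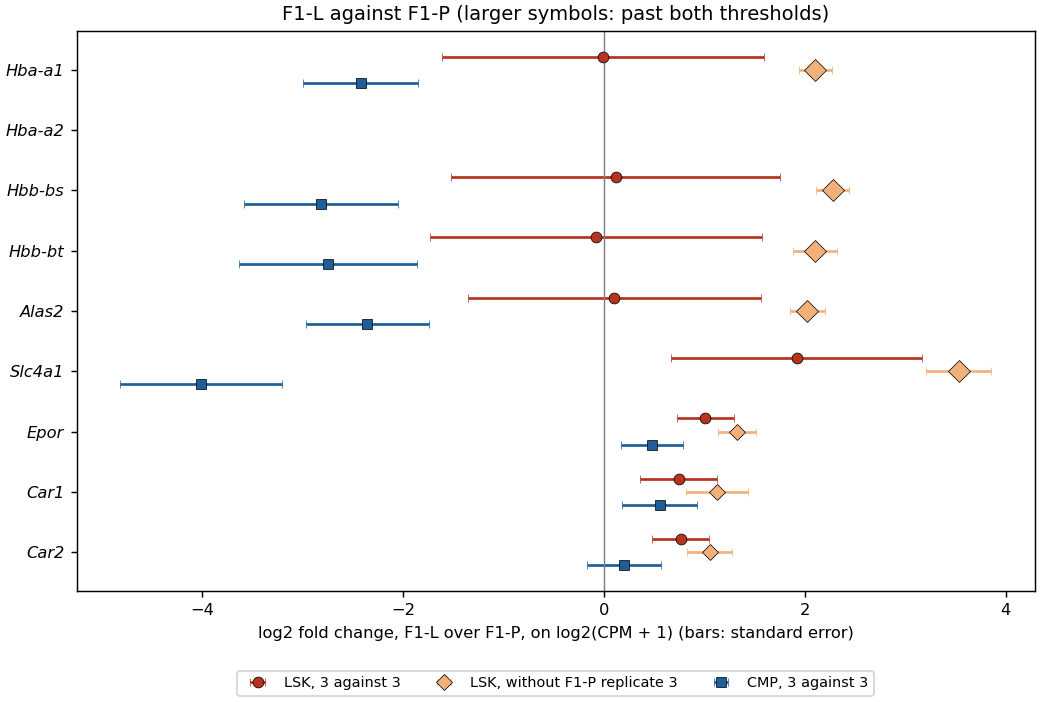
Log2 fold change of F1-L over F1-P for each gene on log2(CPM + 1), with the standard error as bars. Circles are LSK with 3 libraries a group, diamonds LSK without F1-P replicate 3 and squares CMPs, and larger symbols are past both thresholds. The late genes of LSK lie between -0.08 and 1.92 with all libraries and between 2.02 and 3.53 when that library is left out, whereas in CMPs they lie between -4.01 and -2.36.

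The early genes of CMPs were abundant and did not share this pattern. Car1 was at 2199, 3512 and 2487 CPM in F1-L and at 2859, 1947 and 1093 CPM in F1-P (log2 fold change 0.55, SE 0.37, limma adjusted p = 0.656). Car2 was at 1642, 2748 and 1666 CPM in F1-L and at 2700.3, 1693 and 1086 CPM in F1-P (0.20, SE 0.37, limma adjusted p = 0.861). Epor was at 135, 187 and 141 CPM in F1-L and at 168, 108 and 72.2 CPM in F1-P (0.47, SE 0.31, limma adjusted p = 0.642). All 3 genes overlapped between the groups and were lowest in F1-P replicate 3, the library with the highest globin values. Across the 6 CMP libraries r with the summed globin genes was 0.98 for Alas2 and 0.99 for Slc4a1, but -0.70 for Epor, -0.67 for Car1 and -0.43 for Car2. In LSK these last 3 were 0.64, 0.44 and 0.51.

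Per kilobase of annotated exon, the level of Car1 in F1-L CMPs was 2190 ± 553 CPM (SD, n = 3), that of Car2 834 ± 261 and that of Epor 77.5 ± 14.2. Hba-a1 followed with 40.4 ± 24.1, Hbb-bs with 37.5 ± 22.5, Hbb-bt with 4.39 ± 2.12, Alas2 with 2.50 ± 1.09 and Slc4a1 with 1.65 ± 0.910. Hba-a1 and Hbb-bs did not differ beyond their spread, nor did Alas2 and Slc4a1. In F1-L LSK the same quantity was highest for Car2, at 145 ± 37.9 CPM per kilobase, followed by Hbb-bs at 102 ± 13.2 and Car1 at 99.1 ± 34.3, and these 3 overlapped within their SDs. Hba-a1 was then at 52.8 ± 7.92, Hbb-bt at 18.3 ± 2.57, Slc4a1 at 9.84 ± 2.99, Epor at 8.29 ± 1.31, Alas2 at 4.95 ± 0.546 and Hba-a2 at 0.120 ± 0.104. By this quantity Hbb-bs stood level with Car1 in F1-L LSK and far under it in F1-L CMPs. It divides by all annotated exons, although 64.3% of the windows of Hbb-bs were shared with Hbb-bt. Reads of shared windows may not have been counted, so globin levels may be too low beside those of the other genes. The extent of this was not tested.

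Summed over the globin genes, the libraries ranged over 24.2 to 2568 CPM in LSK and over 27.3 to 909 CPM in CMPs. The sum was 24.2, 29.4 and 2568 CPM in F1-P LSK and 126, 155 and 121 CPM in F1-L LSK. It was 26.2, 167 and 43.2 CPM in B6-Y and 86.8, 141 and 523 CPM in B6-O. In CMPs, where the sum holds 3 genes, it was 203, 280 and 909 CPM in F1-P and 27.3, 78.5 and 88.4 CPM in F1-L, so that the groups did not overlap. The ratio of this sum to Car1 lay between 0.37 and 21.3 in LSK and between 0.0124 and 0.832 in CMPs.

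**Figure D3:**
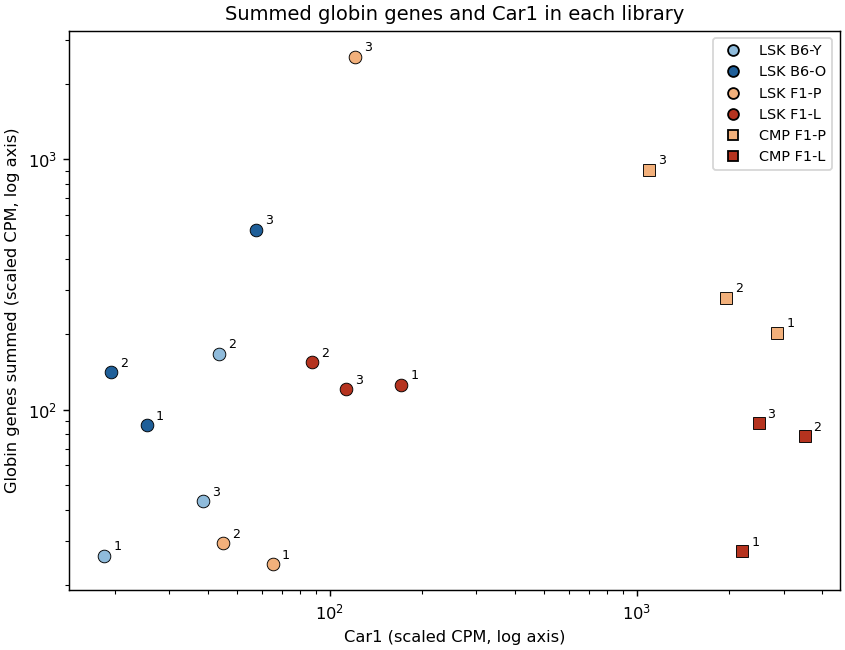
Summed CPM of the globin genes (4 in LSK, 3 in CMPs) against the CPM of Car1 in each library, both on log axes, with the replicate number beside each point. Circles are LSK and squares CMPs, coloured by group. CMPs have more Car1 than any LSK library but globin sums in the same range, and the 3 F1-L CMP libraries lie under the 3 F1-P ones.

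The strains differed in which gene of each globin pair received the reads. Hba-a2 was nearly absent from NZBW/F1 LSK, with 3, 3 and 0 reads in F1-L and 0, 0 and 10 reads in F1-P. It had 340, 599 and 1746 reads in B6-O and 108, 602 and 99 in B6-Y. Every C57BL/6 library thus held at least 99 reads of Hba-a2 and no NZBW/F1 library more than 10, including F1-P replicate 3, in which Hba-a1 had 16842 reads. Per read of the library, Hba-a2 was 418-fold higher in B6-O than in F1-L over the pooled reads (exact 95% interval 191.6 to 1139) and 79.0-fold higher in B6-Y than in F1-P (42.7 to 165). These intervals cover counting error only. In limma the log2 fold change was -4.47 (SE 0.55, limma adjusted p = 0.00281) for F1-L against B6-O and -2.70 (SE 0.58, limma adjusted p = 0.0167) for F1-P against B6-Y. The gene passed the filter on low values only through the C57BL/6 libraries, so its direction was fixed by that filter.

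As a share of the reads of both alpha genes, Hba-a1 held 99.9% ± 0.133 (SD, n = 6) in NZBW/F1 LSK, with a range of 99.7% to 100%. It held 64.5% ± 7.94 (SD, n = 6) in C57BL/6 LSK, with a range of 57.4% to 78.3%. The difference of 35.4 percentage points had an exact two-sided permutation p of 0.00216, the smallest that 6 against 6 can give. Within the young mice it was 33.1 points and within the old mice 37.6 points, where 3 against 3 libraries cannot give an exact p below 0.1.

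The beta pair was shifted in the same way but less far. Hbb-bt held 14.1% ± 1.73 (SD, n = 6) of the reads of Hbb-bs and Hbb-bt in NZBW/F1 LSK, with a range of 11.6% to 16.9%. It held 25.8% ± 5.71 (SD, n = 6) in C57BL/6 LSK, with a range of 21.6% to 37.0%, and the groups did not overlap. NZBW/F1 was lower by 11.7 percentage points, with an exact two-sided permutation p of 0.00216. From the summed values of the 6 libraries a strain, in which those with the most globin weigh most, the shares were 16.4% and 23.3%, and NZBW/F1 was lower by 6.82 points, with no test. The difference of the mean shares was 15 points in the young and 8.31 points in the old mice, each with the smallest exact p of 0.1. F1-P replicate 3, with its high globin level, was at 16.9%, the highest of NZBW/F1 but under every C57BL/6 library. In CMPs the share was 8%, 12.6% and 16.6% in F1-P and 11.5%, 7.29% and 12.4% in F1-L, under every C57BL/6 LSK library.

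The reads were aligned to mm10, which is built from C57BL/6, a strain whose beta globin haplotype holds Hbb-bs and Hbb-bt. The globin haplotypes of NZB and NZW were not analysed here. A lower level of a gene, a lost or altered gene copy and reads of an NZBW/F1 allele counted at the other gene of a pair cannot be told apart with these values. The share of alpha chain reads in all globin reads overlapped between the strains. It was 30.3% to 36.5% over the 12 LSK libraries. In CMPs, where Hba-a2 has no row, it was 57.5%, 38.6% and 35.3% in F1-P and 55.2%, 37.7% and 60.8% in F1-L.

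**Figure D4:**
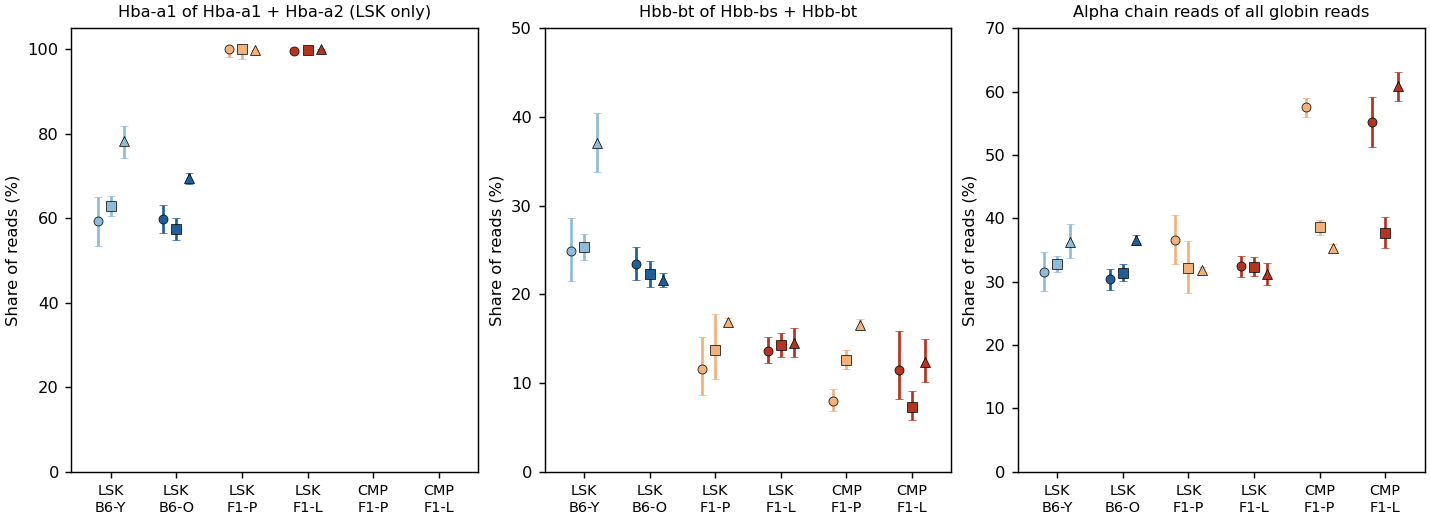
Share of Hba-a1 in the reads of both alpha genes (left), of Hbb-bt in the reads of both beta genes (middle) and of alpha chain genes in all globin reads (right), in percent for each library, with 95% Wilson intervals that cover counting error only. Colours are groups and symbols replicate numbers. The strains separate in the left and middle panels, and in the right panel the LSK libraries lie between 30.3% and 36.5%.

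F1-L against B6-O and F1-P against B6-Y ask how NZBW/F1 LSK differ from C57BL/6 LSK of the same age. Car1 was at 124 ± 42.9 CPM in F1-L and 34.1 ± 20.5 CPM in B6-O (SD, n = 3), a log2 fold change of 1.93 (SE 0.42, limma adjusted p = 0.0274). It was at 76.9 ± 39.2 CPM in F1-P and 33.6 ± 13.4 CPM in B6-Y, a log2 fold change of 1.14 (SE 0.41, limma adjusted p = 0.101). The groups did not overlap at either age. Hba-a2, whose direction the filter fixed, is left out of the counts that follow. Of the 8 other genes 1, Car1, was past the thresholds in F1-L against B6-O, as were 11.6% of all genes in either direction, 7.84% with F1-L higher and 3.75% with F1-L lower. Without regard to the test, Car1 was the 1 of these 8 that was higher in F1-L without overlap and none was lower, as were 17.5% and 20% of all genes. The count of 1 of 8 is near the share of all genes past the thresholds. Car1 no longer passed without B6-O replicate 1 or 2 or without any of the F1-L replicates. In F1-P against B6-Y the corresponding share of all genes was 16.2%, with 10% higher and 6.18% lower in F1-P, and none of the 8 genes was past the thresholds. There Car1 was the 1 of the 8 that was higher without overlap and none was lower, as were 17.4% and 18.1% of all genes.

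The other genes of the set overlapped between the strains. In F1-L against B6-O the log2 fold changes were 0.16 for Hba-a1, -0.32 for Hbb-bs, 0.08 for Alas2, 1.16 (SE 0.78) for Slc4a1, 0.80 (SE 0.34) for Epor and -0.20 (SE 0.21) for Car2, with limma adjusted p between 0.184 (Epor) and 0.934 (Alas2). Hbb-bt was lower by 1.08 (SE 0.53, limma adjusted p = 0.239). Leaving out B6-O replicate 3, the B6-O library with the highest globin values, placed Hba-a1 (1.05), Slc4a1 (2.14), Epor (1.15) and Car1 (2.37) past the thresholds, all higher in F1-L, among 2285 of 14116 genes, 1585 of them higher. That library was highest of its group for all 9 genes, so leaving it out raises these changes by construction and is no test. In F1-P against B6-Y the log2 fold changes were 1.64 (SE 1.60) for Hba-a1, 1.37 (SE 1.65) for Hbb-bs, 0.26 (SE 1.64) for Hbb-bt, 1.12 (SE 1.47) for Alas2, -0.42 (SE 1.40) for Slc4a1, 0.12 (SE 0.36) for Epor and -0.47 (SE 0.27) for Car2. Without F1-P replicate 3 those of Hba-a1, Hbb-bs and Alas2 turned to -0.47, -0.79 and -0.80, and none of the 3 passed in either case. Age alone was compared in C57BL/6. The log2 fold change of B6-O over B6-Y was 1.47 (SE 0.87) for Hba-a1, 1.69 (SE 0.77) for Hba-a2, 1.80 (SE 0.81) for Hbb-bs, 1.26 (SE 0.73) for Hbb-bt and 1.14 (SE 0.72) for Alas2. It was 0.34 (SE 1.08) for Slc4a1, 0.33 (SE 0.41) for Epor, -0.05 (SE 0.45) for Car1 and 0.49 (SE 0.20) for Car2, with limma adjusted p between 0.740 (Car2) and 0.982 (Car1). None of the 9 genes passed the limma thresholds, nor did any of the 14005 genes tested (0%), of which 6.62% had an unadjusted p under 0.05. Car2 was higher in every B6-O than in every B6-Y library, as were 5.69% of all genes, and none of the 9 was lower without overlap, as were 5.57%. On the recovered reads edgeR's likelihood ratio test placed 114 genes and DESeq2 207 past the thresholds, whereas edgeR's quasi-likelihood test placed 0. Hba-a2 was under 1 CPM in all NZBW/F1 libraries, so that its difference of the changes, -1.77 (SE 0.89), rests on the change within C57BL/6. For the other genes the difference between the change from F1-P to F1-L and that from B6-Y to B6-O was -1.48 (SE 2.02) for Hba-a1, -1.68 (SE 2.02) for Hbb-bs, -1.34 (SE 2.00) for Hbb-bt and -1.04 (SE 1.80) for Alas2. It was 1.58 (SE 1.84) for Slc4a1, 0.68 (SE 0.54) for Epor, 0.79 (SE 0.66) for Car1 and 0.27 (SE 0.37) for Car2, with none of the genes past the limma thresholds in 15084 tested (0%; 3.92% at an unadjusted p under 0.05).

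The genes that work with these 9 were described from fixed lists. In F1-L against F1-P none of the listed genes passed the limma thresholds in LSK or in CMPs, and counts of groups that did not overlap are given. In CMPs, 7 of 18 late erythroblast markers were lower in F1-L and none higher, the 5 of the set together with Tmcc2 (29.2 against 54.9 CPM) and Slc25a37, which imports iron into mitochondria (135 against 238 CPM). The median of the 18 was -0.46, and of all genes 6.57% were lower and 9.45% higher without overlap. Fech, of the same list, overlapped between the groups at 203 CPM in F1-L and 184 CPM in F1-P. Of 17 early erythroid markers 1 was higher in F1-L, Mfsd2b (377 against 253 CPM), and of 12 erythroid transcription factors 3 were, Gata2 (138 against 62.7 CPM), Lmo2 (438 against 365 CPM) and Nfe2 (132 against 100.5 CPM). The count of 1 of 17 is near or below the share of all genes. Gata1, the factor of the erythroid programme, was at 223 and 173 CPM and Klf1, an activator of the beta globin genes, at 252 and 214 CPM, with overlap.

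In LSK, 7 of 12 erythroid transcription factors (median 0.86) and 7 of 17 early erythroid markers (median 0.76) were higher in every F1-L than in every F1-P library. With age in C57BL/6, 5 of the 12 factors, Gata2, Tal1, Sox6, Lmo2 and Zfpm1 (median of the list 0.49), and 2 of the 17 early markers (median 0.11) were higher in every B6-O than in every B6-Y library, beside 5.69% of all genes. In the difference of differences none of the genes of either list had an unadjusted p under 0.05 in limma. In F1-L against F1-P LSK, the late erythroblast markers higher without overlap were 1 of 18 (median 0.17), genes of the red cell membrane and skeleton 1 of 16 (median 0.74), genes of iron uptake 2 of 9 (median 0.02) and of Epo receptor signalling 2 of 10 (median 0.08). Genes of heme synthesis had 0 of 11 in LSK (median 0.17) and 0 of 11 in CMPs (median 0.05). The median over all genes was -0.01 in LSK, and 10.4% of all genes were higher without overlap. In CMPs the medians were 0.10 for the membrane list, 0.01 for iron uptake and -0.30 for Epo receptor signalling, with 0 of 16 genes, 1 of 9 lower and 1 of 11 higher without overlap. Of the further carbonic anhydrases, Car9 was at 8.37 CPM in F1-L and 6.31 CPM in F1-P LSK, and Car13 at 9.62 and 8.38 CPM in CMPs. Of 11 embryonic and other globin genes with the alpha chain chaperone, 1 was listed in LSK and 4 in CMPs, and none passed the filter on low values.

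Against B6-O, 5 of 16 genes of the red cell membrane and skeleton were past the thresholds and higher in F1-L LSK, as were 7.84% of all genes. Among them were Sptb (2.10), which encodes erythroid beta-spectrin, Ermap (1.73), Ank1 (1.72), which encodes ankyrin, and Rhag (1.66), and the limma adjusted p of these 4 lay between 0.0146 and 0.0498. In F1-P against B6-Y none of the 15 genes of this list that were tested passed, had an unadjusted p under 0.05 in limma or had groups that did not overlap. In the difference of differences no gene of the list had an unadjusted p under 0.05 either. Of the heme synthesis genes, Alad was higher in F1-L than in B6-O (122 against 49.4 CPM, limma adjusted p = 0.0305) and in F1-P than in B6-Y (126 against 35.3 CPM, log2 fold change 1.83, limma adjusted p = 0.00156). Cpox was higher in F1-L than in B6-O (82.1 against 44.0 CPM). Tfr2, which encodes transferrin receptor 2, was lower in NZBW/F1 at both ages (67.7 against 133 CPM in the old mice and 31.8 against 86.7 CPM in the young). Lmo2 was lower at both ages as well (-0.83 and -0.82), and Gata2 (-0.99) and Bcl11a (-0.71) were lower in F1-P than in B6-Y. Ces2g, of the early markers, was higher in F1-L than in B6-O (43.0 against 17.3 CPM), and Trim58, of the late markers, in F1-P than in B6-Y (12.6 against 4.27 CPM). Bcl2l1, which encodes an inhibitor of cell death, was higher in F1-P than in B6-Y (40.8 against 24.1 CPM). Of the carbonic anhydrases, Car11 was higher in NZBW/F1 at both ages (1.20 in the old and 2.09 in the young mice) and Car9 lower in F1-P than in B6-Y (6.31 against 11.5 CPM). All of these were past the limma thresholds. For Car11 in the young mice, the B6-Y mean was 0.537 CPM against 5.49 CPM in F1-P. It thus passed the filter on low values mainly through F1-P, and its direction there was not independent of that filter.

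By likeness of pattern over the 12 LSK libraries, the genes closest to the summed globin genes outside the set were March2 (r = 0.90), Mkrn1 (0.84), Fam213a (0.84), Fech (0.82) and Fam220a (0.79) of 11317 genes ranked. Fech encodes the last enzyme of heme synthesis. The genes closest to Car1 in LSK were Col5a1 (0.95), Cited4 (0.94), Aqp1 (0.93), Ermap (0.93) and Atp1b2 (0.93), and r with Car1 was 0.74 for Epor, 0.03 for Car2 and 0.47 for Hbb-bs. Over the 6 CMP libraries the globin sum was followed by Rnf10 (0.98), Ethe1 (0.98), Ctsb (0.97), Spry1 (0.97) and Wdr26 (0.97), and Car1 by Atp13a1, Psmg2, Hk1, Oxnad1 and Ddx24, each at 1.00, of 10324 genes ranked. Epor (0.99) and Car2 (0.93) were close to Car1 in CMPs. The points share libraries and depth, and these values are a description.

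Markers of cells outside the gates moved with the globin genes in several libraries. The 10 neutrophil markers, led by S100a9, summed to 490, 5296 and 473 CPM in B6-Y and to 1687, 816 and 10529.9 CPM in B6-O, so that the highest library was the same as for Hbb-bs in both groups. They summed to 11994, 4787 and 1934 CPM in F1-L LSK, which had even globin values. In CMPs they summed to 84.3, 63.4 and 423 CPM in F1-L and to 304, 6259.7 and 8196 CPM in F1-P, with a median log2 fold change of -4.10 and 2 of 10 lower in F1-L without overlap, and all 10 markers were highest in F1-P replicate 3, as were the globin genes. In LSK the median was 3.00, with 9 of 10 higher in F1-L without overlap.

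Plasma cell markers, 7 genes led by Jchain in LSK and by Xbp1 in CMPs, summed to 249 to 2502 CPM in C57BL/6 LSK, to 9587 to 37483 CPM in NZBW/F1 LSK and to 64.9 to 307 CPM in CMPs. In F1-L against F1-P, 2 of 7 were lower without overlap in LSK (median -0.91) and 3 of 5 in CMPs (median -1.40), beside 7.29% and 6.57% of all genes. Macrophage markers, led by Cd163 in LSK and Slc40a1 in CMPs, were higher in F1-L LSK than in F1-P LSK for 9 of 11 genes (median 1.45), and in CMPs their median was -1.28 with 0 of 9 apart in either direction. Against B6-O, 10 of 11 macrophage markers were higher in F1-L without overlap (median 1.54), beside 17.5% of all genes. Of these C1qa (5.63 against 0.926 CPM), Hmox1 (17.6 against 5.49 CPM), Mrc1 (10.4 against 1.02 CPM) and Siglec1 (3.46 against 0.316 CPM) were past the limma thresholds. Siglec1, with its B6-O mean of 0.316 CPM, passed the filter on low values only through the F1-L libraries. Its direction was therefore fixed by that filter, and it is among the 10 counted above. C1qa (0.926 CPM) and Mrc1 (1.02 CPM) had B6-O means near the limit of 1 CPM, so their direction may depend on the filter as well. The sum of the list was 88.4 to 189 CPM in F1-L and 49.2 to 51.3 CPM in B6-O. In F1-P against B6-Y, 0 of 10 were higher and 1 was lower without overlap (median -0.47). In the limma difference of differences, 9 of 11 macrophage markers had an unadjusted p under 0.05 (median 1.72), beside 3.92% of all genes. None of them passed the thresholds there. Megakaryocyte and platelet markers summed to 131, 110.3 and 164 CPM in F1-P LSK and to 206, 457 and 302 CPM in F1-L LSK, with 7 of 8 higher in F1-L without overlap. With age in C57BL/6, 6 of 8 were higher in B6-O than in B6-Y without overlap (median 0.81), beside 5.69% of all genes, and 1 of 9 had an unadjusted p under 0.05 in the limma difference of differences. In CMPs the same markers summed to 537, 398 and 291 CPM in F1-L and to 120.5, 422 and 109 CPM in F1-P. Among the gate markers 3 of 11 were higher in F1-L LSK and 2 of 11 in F1-L CMPs without overlap. For these lists the share of all genes higher in F1-L without overlap was 10.4% in LSK and 9.45% in CMPs, and the 2 gate markers are near it. Between the strains 6 of 7 plasma cell markers were past the limma thresholds and higher in F1-L than in B6-O, as were 7.84% of all genes, and 7 of 7 in F1-P than in B6-Y, as were 10% of all genes. These were Jchain, Irf4, Mzb1, Prdm1, Sdc1 and Xbp1 at both ages and Tnfrsf17 in the young mice. Of the gate markers Ly6a was higher (2.68 and 3.53) and Cd34, Hlf and Meis1 were lower in NZBW/F1 at both ages, and Flt3 was lower in F1-P. Itga2b, of the megakaryocyte list, was lower at both ages (-1.23 and -2.26), and Gp5 and Gp9 were lower in F1-P. The part of these cells in the values of the globin and erythroid genes was not tested.

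**Figure D5:**
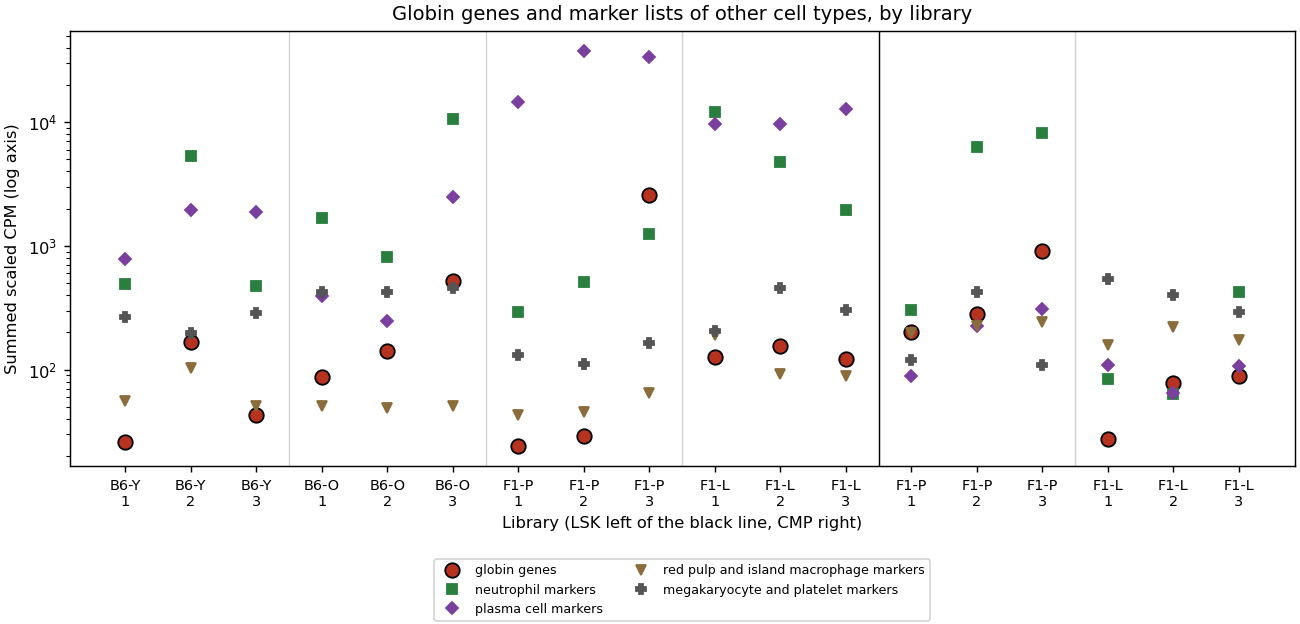
Summed CPM of the globin genes and of markers of 4 other cell types in each library, on a log axis, with LSK left of the black line and CMPs right of it. Symbols are lists and columns are libraries by group and replicate. The globin sum of F1-P replicate 3 (2568 CPM in LSK, 909 CPM in CMPs) stands above the other libraries of its table, and the neutrophil sum reaches 8196 CPM in the same CMP library and 1249 CPM in the LSK one.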

How the data were processed

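RNA of sorted LSK and CMPs was prepared as mRNA libraries and read as single ends of 75 bases. The authors aligned the reads with STAR 2.6 to mm10 and counted them per gene with HTSeq, and edgeR was used downstream. The deposited tables hold a signal per gene, CPM of a library size that the authors had scaled, for 18 columns, all of which were used. From these steps 100% of the values came out as whole reads within 0.1 read. Identifiers were matched to GENCODE M21 on GRCm38, the assembly of mm10, for 19770 of 19780 LSK genes and 18421 of 18428 CMP genes.

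Genes that reached 1 CPM in 3 or more libraries of a comparison were tested with limma 3.58.1 (R 4.3.3; lmFit, then eBayes with a trend) on log2(CPM + 1), with only the libraries of the groups compared, except for the difference of differences, which used all 12 LSK libraries. P-values were adjusted over all genes tested by the Benjamini-Hochberg method. The thresholds were 0.05 for the adjusted p and 1.5-fold for the change. Shares of reads were compared with exact two-sided permutation tests in Python 3.11.15 (scipy 1.17.1). The fits were tested on simulated data. Replicate pairs differed by 10.9 to 252 times sampling noise (chi-square over degrees of freedom), so each library was counted as 1 sample.

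The 9 genes and the lists were chosen with earlier results of these data known. The 9 are given in every comparison that tested them. From each list the rule names genes past the thresholds and up to 3 with the highest mean, of which not all are printed. Other genes named from the lists, and those named to say which groups did not overlap, were chosen after their values were seen. The 5 genes nearest in pattern were ranked by Pearson's r among genes with a mean CPM of at least 5. Alternatives were another pseudocount (0.1), filters, scalings, a replicate block, all LSK libraries in 1 fit, edgeR 4.0.16 (quasi-likelihood and likelihood ratio tests) and DESeq2 1.42.0 on the recovered reads, and leaving out each replicate. NZB and NZW sequence was not used here, and some genes of the lists are not reported here by name.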

Additional observations from a re-analysis of the deposited data

Results flagged for a closer look

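The share of Hbb-bt in the reads of Hbb-bs and Hbb-bt was 37.0% in B6-Y replicate 3 (296 of 799 beta globin reads), far above the other 5 C57BL/6 LSK libraries, the next of which was at 25.4%. The gap to that library took 0.757 of the range of the 6 libraries, over the limit of 0.625 by Dixon's rule, which chance passes in about 1 of 20 groups. The same library had the highest share of Hba-a1 in C57BL/6 LSK, 78.3%. Leaving it out, NZBW/F1 minus C57BL/6 was -9.41 percentage points, in place of -11.7 with it.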

How the results depend on the processing

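Over the alternatives other than leaving out a replicate, 413 of 451 fold changes of the 9 genes kept their direction and their side of the threshold, 23 changed sign and 15 came to pass it. Over the fits that left out a replicate 309 of 360 did, and 37 changed sign. The cause of these changes was not tested.

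Between F1-L and F1-P LSK, 4 genes passed the thresholds, against 657 in edgeR's likelihood ratio test and 734 in DESeq2. The count was 3 in edgeR's quasi-likelihood test, 26 with all 12 LSK libraries in 1 fit and 0 to 25 without a replicate. Of the 9 genes, 0 passed, against 1 in DESeq2 and 0 to 5 when a replicate was left out. In CMPs 1 gene passed, against 308 in the likelihood ratio test, 351 in DESeq2, 1 in the quasi-likelihood test and 0 to 434 without a replicate. Of the erythroid genes 0 passed in CMPs, against 5 in the likelihood ratio test, 5 in DESeq2 and 0 to 2 without a replicate. In F1-L against B6-O the 1667 genes became 448 to 2285 and the 2 erythroid genes, Car1 and Hba-a2, 0 to 4 without a replicate. In F1-P against B6-Y the 2331 genes became 927 to 2229, and the 1 erythroid gene, Hba-a2, became 0 to 1 without a replicate, 3 in the likelihood ratio test (with Hba-a1 and Car1) and 2 in DESeq2 (with Car1). The direction of Hba-a2 was fixed by the filter on low values in both comparisons, and the counts of the other 8 genes are 1 and 0. In B6-O against B6-Y the count of 0 became 1 with scaling by the median of ratios, 114 in the likelihood ratio test, 207 in DESeq2, 13 in the fit of all 12 libraries and 0 to 48 without a replicate. The quasi-likelihood test gave 0 there. For the difference of differences the count of 0 became 10 in the likelihood ratio test, 29 in DESeq2 and 0 to 1 without a replicate. It stayed at 0 in the quasi-likelihood test.

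The fold changes with a changed sign were as follows. In F1-L against F1-P LSK, Hba-a1 was 0.052 with a pseudocount of 0.1 and 0.052 with scaling by non-immunoglobulin genes, Hbb-bt was 0.15 with that pseudocount, and in the 3 count models Hbb-bs was -2.66 and Alas2 -2.29. In those models F1-L against B6-O gave -0.44, -0.44 and -0.39 (DESeq2) for Hba-a1 and -0.24, -0.24 and -0.18 for Alas2, F1-P against B6-Y gave 0.71, 0.70 and 0.72 for Slc4a1, and the difference of differences gave -0.19, -0.19 and -0.18 for Slc4a1. Car1 in B6-O against B6-Y was 0.00046 in the quasi-likelihood and 0.00043 in the likelihood ratio test. When a replicate was left out, F1-L against F1-P in LSK ranged over -1.09 to 2.10 for Hba-a1, -1.05 to 2.27 for Hbb-bs, -1.27 to 2.10 for Hbb-bt and -0.87 to 2.02 for Alas2, with the highest value of each without F1-P replicate 3. Car2 in CMPs ranged over -0.13 to 0.53. F1-L against B6-O ranged over -0.45 to 1.05 for Hba-a1, -0.84 to 0.39 for Hbb-bs and -0.41 to 0.68 for Alas2. F1-P against B6-Y ranged over -0.47 to 2.72 for Hba-a1, -0.79 to 2.53 for Hbb-bs, -1.92 to 1.45 for Hbb-bt, -0.80 to 2.09 for Alas2, -2.04 to 0.52 for Slc4a1 and -0.20 to 0.34 for Epor. B6-O against B6-Y ranged over -0.67 to 1.17 for Slc4a1, -0.026 to 0.64 for Epor and -0.49 to 0.27 for Car1. The difference of differences ranged over -2.56 to 0.63 for Hba-a1, -2.84 to 0.48 for Hbb-bs, -2.54 to 0.84 for Hbb-bt and -2.02 to 0.88 for Alas2.

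The difference in the share of Hbb-bt was -6.82 points from the summed values, -15 points in the young and -8.31 in the old mice, and that of Hba-a1 33.1 and 37.6, where the smallest exact p is 0.1. Without a replicate they ranged over -12.5 to -9.41 and 33.9 to 38.1.

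Same-numbered libraries did not deviate together in every pair. The correlation of their deviations was -0.04 to 0.03 in F1-L against F1-P LSK, -0.45 to 0.62 in CMPs, 0.00 to 0.06 in F1-L against B6-O, 0.07 to 0.33 in F1-P against B6-Y and -0.36 to 0.47 in B6-O against B6-Y, so the replicate number was taken as a name. With a replicate block the counts of genes past the thresholds were 0 in both comparisons of F1-L with F1-P, 1380 in F1-L against B6-O, 2787 in F1-P against B6-Y and 0 in the others, and the counts of erythroid genes did not change.

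With 3 libraries a group the spread between libraries limits what can be said of the late genes of LSK. The share of reads that each globin gene takes from its near-identical copy is not known. LSK and CMP values were normalized apart, and age goes with disease in NZBW/F1.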
